A study of Drosophila melanogaster with 3 samples.

Results

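Far distal peaks are the sites of CG1602 enrichment whose summit lay more than 10000 bp from the nearest annotated transcription start site (TSS). They were chosen by position alone, from the authors' list of peaks that passed the irreproducible discovery rate (IDR), a filter that keeps regions ranked alike in replicates. Of the 4599 IDR peaks, 272 were far distal (5.91%, 95% Clopper-Pearson interval 5.25 to 6.64%), counting summits inside introns and between genes together. The data came from whole Drosophila melanogaster embryos of both sexes, pooled and aged 0 to 24 h, of a transgenic line stably expressing CG1602 with green fluorescent protein (GFP) at its C terminus. Chromatin was sheared to a range of 200 to 800, and an antibody against GFP was used for chromatin immunoprecipitation and sequencing (ChIP-seq). There was 1 group of 3 biological replicates, without a second genotype, treatment or stage, and all replicates carried the fusion and shared 1 control. Whole embryos mix all tissues and many stages, so a weak peak in many cells and a strong one in few cannot be told apart.

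A ChIP-seq peak marks a stretch of genome that was recovered more often with the tagged protein than in a control, and its summit is the point of highest recovery. Sites far from any TSS are where a transcription factor can sit on enhancers, silencers or boundary elements, which act on genes over a distance. In the compact fly genome such sites lie mostly in the long introns and gene-poor flanks of developmental genes. Genes that pattern the embryo, guide axons or respond to hormones are known for this kind of extended regulatory DNA.

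Around 1 in 8 far distal summits carried the 8-letter word CACTGAGA, in nearly all cases placed beside the summit and reading towards it. The word is shown first because its share was higher here than in any class of peaks nearer to a TSS. It was picked after an earlier look at the same peaks, and its orientation, the distance band and the spans below were chosen after seeing the data, so the values are descriptions. Bases were read from the RefSeq version of the dm6 assembly. At 5 of the 272 members (1.84%) the word stood on both sides of the summit, in opposite orientations that face each other. The same arrangement was found at 7 of the 4327 other IDR peaks (0.162%), so it was not confined to far distal peaks. Of those other peaks, 4 lay 500 to 2000 bp from a TSS, 3 lay 2000 to 10000 bp away and 0 within 500 bp. The sequences of the 5 far distal sites follow. These are printed from 6 bp before the first word to 6 bp after the second, with both words in capitals (the second appears as its reverse complement, TCTCAGTG).
lncRNA:CR44711, chrX:21593993-21594174, plus strand: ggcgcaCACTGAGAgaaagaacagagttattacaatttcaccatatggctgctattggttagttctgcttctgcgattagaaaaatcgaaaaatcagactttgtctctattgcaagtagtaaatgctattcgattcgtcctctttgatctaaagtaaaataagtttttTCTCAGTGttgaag
CG15282, chr2L:14701611-14701774, plus strand: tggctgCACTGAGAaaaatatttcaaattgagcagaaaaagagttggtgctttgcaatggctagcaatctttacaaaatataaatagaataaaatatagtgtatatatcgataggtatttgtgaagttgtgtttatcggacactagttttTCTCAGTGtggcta
kirre, chrX:3025632-3025797, plus strand: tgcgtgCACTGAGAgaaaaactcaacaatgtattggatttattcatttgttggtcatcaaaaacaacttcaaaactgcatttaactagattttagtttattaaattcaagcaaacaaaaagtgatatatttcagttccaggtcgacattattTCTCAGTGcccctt
rpr, chr3L:18367890-18368050, plus strand: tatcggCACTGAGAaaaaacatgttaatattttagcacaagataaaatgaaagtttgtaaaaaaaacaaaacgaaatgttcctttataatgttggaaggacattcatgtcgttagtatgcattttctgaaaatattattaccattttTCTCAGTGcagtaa
CG12535, chrX:3394236-3394394, plus strand: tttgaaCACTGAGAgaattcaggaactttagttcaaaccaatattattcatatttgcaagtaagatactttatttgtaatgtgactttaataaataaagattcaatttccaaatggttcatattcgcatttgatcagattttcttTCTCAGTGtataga

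The facing words were separated by 154 bp at lncRNA:CR44711, 136 bp at CG15282, 138 bp at kirre, 133 bp at rpr and 131 bp at CG12535. The summits fell between the words in all 5, because the sites were chosen for a facing word on both sides. Their signal ranged from 315.9 at lncRNA:CR44711, rank 994 of the IDR list, to 109.3 at CG12535, rank 4536, so these sites were spread through the list. Single words at other members are shown next with 12 bases to either side, each on the strand that reads CACTGAGA, in capitals. The first 7 read towards the summit and the last, at gukh, reads away from it.
CG6959, chr3R:11849894-11849925, minus strand: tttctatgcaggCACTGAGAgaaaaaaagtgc
CG43759, chrX:19018181-19018212, plus strand: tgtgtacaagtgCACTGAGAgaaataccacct
Rca1, chr2L:6841603-6841634, minus strand: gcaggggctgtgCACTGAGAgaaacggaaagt
ed, chr2L:4045657-4045688, minus strand: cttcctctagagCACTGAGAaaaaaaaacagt
Dr, chr3R:29567094-29567125, plus strand: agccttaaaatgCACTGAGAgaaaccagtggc
ems, chr3R:13914982-13915013, minus strand: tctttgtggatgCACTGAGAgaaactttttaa
Lim1, chrX:8774162-8774193, plus strand: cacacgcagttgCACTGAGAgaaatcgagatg
gukh, chr3R:18995896-18995927, minus strand: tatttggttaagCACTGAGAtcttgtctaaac

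Within 100 bp of the summit, 34 of the 272 members held the word (12.5%, 95% interval 8.81 to 17.0%), with 38 occurrences at 38 different positions. All IDR peaks together held it at 4.09%. In control windows of the same length 1000 bp to either side of the members it was found in 2 of 544 (0.368%, 0.0446 to 1.32%). Of the 38 occurrences, 37 read towards the summit, and the 1 that read away lay 13 bp from it, at gukh. Within 300 bp there were 54 words towards the summit and 3 away.

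The words that read towards the summit had a median distance of 84.5 bp from it, with quartiles of 55.3 and 110.8 bp. Between 20 and 130 bp from the summit, 40 members held a word that faced it (14.7%, 10.7 to 19.5%) and 1 held a word facing away (0.368%). Over all IDR peaks the facing word was found at 4.89%. At points 1000 bp from the members' summits, 3 of 544 had a word in the same band and sense (0.551%) and 0 had one in the other sense, with an interval that reached 0.676%. Within 50 bp of the summit the whole word was found at only 3.68% of members.

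**Figure D1:**
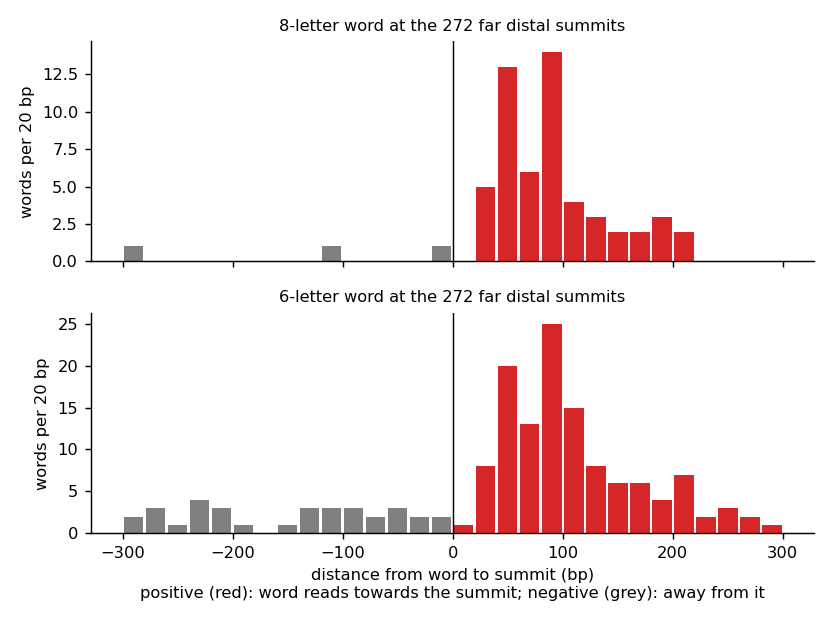
Position and sense of the 8-letter word (upper panel) and its first 6 letters (lower panel) around the 272 far distal summits, as the number of words in each bin of 20 bp against the distance from word to summit in bp. Words that read towards the summit are at positive distances in red, those that read away at negative distances in grey. Of the 57 longer words within 300 bp, 54 are red.

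The shorter word CACTGA showed the same sense. It faced the summit from 20 to 130 bp at 68 members (25%, 20 to 30.6%) and faced away at 12 (4.41%, 2.30 to 7.58%), while 14.4% of all IDR peaks had the facing word. The control points had it at 5.15% and 3.68%. It stood on both sides of the summit at 16 members (5.88%), against 54 of the 4327 other IDR peaks (1.25%).

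The share of peaks with the facing 8-letter word was higher in each class farther from a TSS. It was 2.06% (1.52 to 2.73%) within 500 bp, 5.52% (4.16 to 7.15%) from 500 to 2000 bp, 7.81% (6.29 to 9.57%) from 2000 to 10000 bp and 14.7% beyond. The intervals of the last 2 classes did not overlap. No test of this difference was made, and intervals cover counting error over peaks only. In the genome as a whole, of 975 sites of the word more than 10000 bp from a TSS, 39 lay within 100 bp of an IDR summit (4.00%, 2.86 to 5.43%), and of 594 within 500 bp of a TSS, 43 did (7.24%, 5.29 to 9.63%). Most far distal copies of the word thus had no IDR summit beside them, and the intervals of these 2 shares overlapped slightly.

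**Figure D2:**
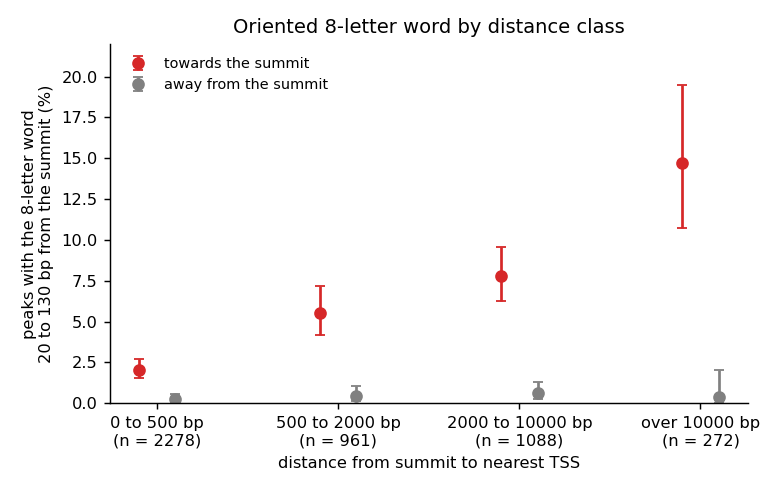
Share of IDR peaks (%, vertical axis) with the 8-letter word 20 to 130 bp from the summit in 4 classes of distance to the nearest TSS, with 95% Clopper-Pearson intervals. Red points are words that read towards the summit and grey points words that read away; red rises from 2.06% to 14.7% while grey stays under 1%.

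The bases next to the word were partly shared. Counting from 1 at the first base of the word, the 38 occurrences within 100 bp had A in 92.1% at position 10, 89.5% at position 11 and 84.2% at position 12. Position 9 was A in 47.4% and G in 44.7%, and the base just before the word was G in 63.2% and A in 36.8%. Over the other flanking bases the sequences differed. The 12 bases to either side had a median identity of 33.3% over all 703 pairs, with a highest value of 66.7%, so no 2 of these sites were near-copies of one element over that stretch.

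The word was found at members from rank 477 of the IDR list, in CG6959, to rank 4573, in kek5. No member above rank 477 held it within 100 bp. Members with it had a median rank of 2407.5 in the IDR list and those without it 2823, and the median signal values were 181.0 and 159.9. The facing word was found at 16.7% of the strongest 90 members, 12% of the middle 92 and 15.6% of the weakest 90. It was present in introns (13.7% of 183) and between genes (17.4% of 86) alike, within their intervals of 9.04 to 19.5% and 10.1 to 27.1%.

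Although the full word was at only 1 of the 20 strongest members, that in CG6959, its first 6 letters faced the summit at 25% of them (8.66 to 49.1%) and at 28.9% of the strongest 90, beside 25% of all members. The stretches of 61 bp around 4 of the strongest 10 members are shown on the plus strand, with the 5 bases centred on the summit in capitals. They reach only 30 bp to either side, nearer than most facing words lay. Whether a site has the word thus cannot be read from them.
fz, chr3L:14304065-14304125, plus strand: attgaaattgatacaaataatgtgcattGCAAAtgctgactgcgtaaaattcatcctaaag
N, chrX:3162496-3162556, plus strand: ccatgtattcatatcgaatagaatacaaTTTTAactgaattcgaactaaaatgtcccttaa
Hr4, chrX:1963895-1963955, plus strand: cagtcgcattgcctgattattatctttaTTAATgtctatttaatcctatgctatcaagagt
CG10651, chr2L:20121018-20121078, plus strand: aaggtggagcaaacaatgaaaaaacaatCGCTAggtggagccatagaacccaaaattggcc

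The first is in an intron of fz, which encodes the Wnt receptor Frizzled, and the second in an intron of N, which encodes the receptor Notch. The third is in an intron of Hr4, a nuclear receptor gene of the ecdysone response, and the last lies between genes nearest to CG10651. None of the 4 held CACTGAGA within 100 bp.

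The strongest member of all was intergenic, 11918 bp from the TSS of CG13323 (arm 2R, 13035172 to 13035514), with a signal of 1684 and rank 19 among all IDR peaks. It ranked 18, 22 and 16 in replicates 1, 2 and 3, each a list of 17580 to 27164 regions, so its rank was stable across samples. The signal is the authors' value relative to the control, its scale is not stated, and here it only ranks regions within a list. The next was in an intron of sbb, the gene of the transcriptional corepressor Scribbler, with a signal of 723.4, in the top 1.05, 0.556 and 1.09% of the 3 replicate lists. The fz peak had a signal of 698.9, lay 22156 bp from the nearest TSS and was in the top 1.31, 0.372 and 1.33%. The fz peak thus stood higher in replicate 2 than in the other replicates.

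Intergenic members followed near lncRNA:CR45411 (signal 615.5, ranks 323, 177 and 284), CG10651 (592.4, ranks 462, 439 and 155) and CG5103 (558.4, ranks 394, 215 and 359). The CG10651 peak ranked clearly higher in replicate 3 than in the others. The N peak had a signal of 547.7 with ranks of 358, 231 and 405. That in cv-2, whose product binds BMP ligands outside the cell, had 529.2 with ranks of 359, 257 and 431. The Hr4 peak had 527.3 with ranks of 341, 427 and 400. All of these stayed within the strongest 500 regions of each replicate.

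The remaining members of the strongest 20 had signal values from 534.8 down to 386.8. They comprised 2 more in sbb (534.8 and 459.3), 2 near CG43245 (514.6 and 435.6), and 1 each near tRNA:Ile-TAT-1-2 (477.6), lncRNA:CR45287 (467.9) and lncRNA:CR43785 (395.1). Introns of CG6959 (457.3), gpp (421.7), lncRNA:CR32773 (405.3) and simj (386.8) held the others. The gene gpp encodes the Dot1 histone H3 methyltransferase, and simj a subunit of the NuRD chromatin remodelling complex. Ranks differed between samples for some of them, with 374, 974 and 833 for the lncRNA:CR32773 peak and 601, 222 and 612 for the weaker of these sbb peaks.

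Far distal peaks had lower signal than promoter peaks, and nearly the same as peaks at 2000 to 10000 bp. Their median signal was 163.8, with quartiles of 127.2 and 219.3, while promoter peaks within 500 bp had a median of 203.6 and peaks at 2000 to 10000 bp one of 167.2. Only 33 members (12.1%) were among the strongest 1150 IDR peaks, and 91 (33.5%) were among the weakest 1150. In the list from pooled replicates, which also holds background, 272 of 1597 far distal regions reached the IDR list (17.0%, 15.2 to 19.0%), compared with 27.6% of all regions and 39.0% at promoters.

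Each replicate gave the same order. The median rank, as a percentage of the list with 0 the strongest, was 15.6 for far distal and 12.2 for all other IDR peaks in replicate 1, 10.2 and 8.05 in replicate 2, and 15.4 and 11.7 in replicate 3. The mean difference was 3.05 ± 0.832 percentage points (SD, n = 3), in the same direction in all 3. An exact two-sided sign-flip permutation test gave p = 0.25, the smallest that 3 replicates allow, so the design cannot reach 0.05. Peaks at 2000 to 10000 bp had median ranks of 14.2, 9.61 and 14.4% in replicates 1, 2 and 3. These were nearer to the far distal values than to those of all other IDR peaks.

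**Figure D3:**
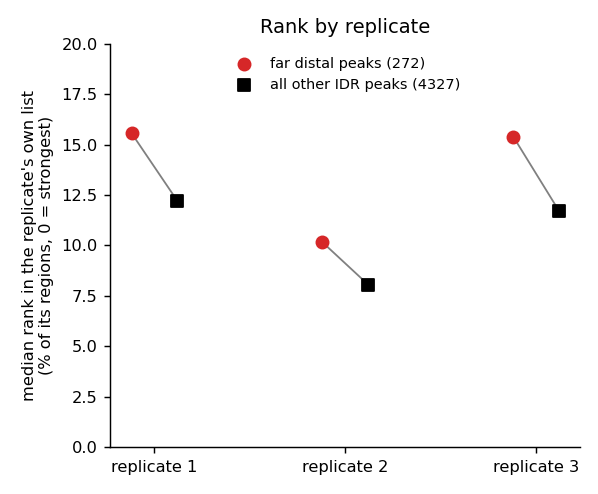
Median rank of the 272 far distal peaks (red circles) and the 4327 other IDR peaks (black squares) in each replicate's own list, as a percentage of the list's regions with 0 the strongest. Far distal peaks sit at a larger percentage, that is lower in the list, in all 3 replicates.

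Among equally long lists of the strongest 4599 regions, 182 members were held by all 3 replicates (66.9%, 61.0 to 72.5%), 68 by 2 and 22 by 1. Over all IDR peaks 73.6% were held by all 3, which lay outside the members' interval. At promoters the share was 76.82%. At 2000 to 10000 bp it was 68.75%, inside the members' interval, so a lower share was not particular to far distal peaks. All 272 were present in the whole lists of every replicate. The IDR list was derived from these same lists and 1 shared control, so overlap is built in. Holding followed signal: all of the strongest 90 members were held by all 3 replicates, 82.6% of the middle 92 and 17.8% of the weakest 90.

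Distances to the nearest TSS ranged from 10012 to 49825 bp, with a median of 14267.5 bp. There were 70 members beyond 20 kb and 18 beyond 30 kb. The farthest lay in an intron of hth, which encodes a homeodomain partner of Hox proteins, at 49825 bp (signal 142.4, ranks 2913, 7377 and 2770). It was followed by another peak in hth at 47619 bp (signal 183.9, ranks 1881, 2142 and 3330). The first of them was far lower in replicate 2 than in the other replicates.

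A peak in mamo, a zinc finger gene needed in the germ line, lay 42263 bp away (signal 383.0, ranks 584, 682 and 765), 1 in Snoo, the fly Ski and Sno gene, 41859 bp away (signal 156.5), and 1 in CG17839 at 37750 bp (signal 129.1). All of the 5 farthest were intronic. Just inside the limit were members nearest to Efa6 at 10012 bp, CG42749 at 10031 bp and CG12684 at 10052 bp, with signal values of 205.0, 154.2 and 115.5. Just outside were peaks nearest to lncRNA:CR45287 at 9963 bp, in Hr4 at 9986 bp and in ush at 9989 bp, with signal values of 150.4, 482.0 and 187.5. The limit thus divides neighbours such as the peaks of Hr4 without any gap in distance.

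**Figure D4:**
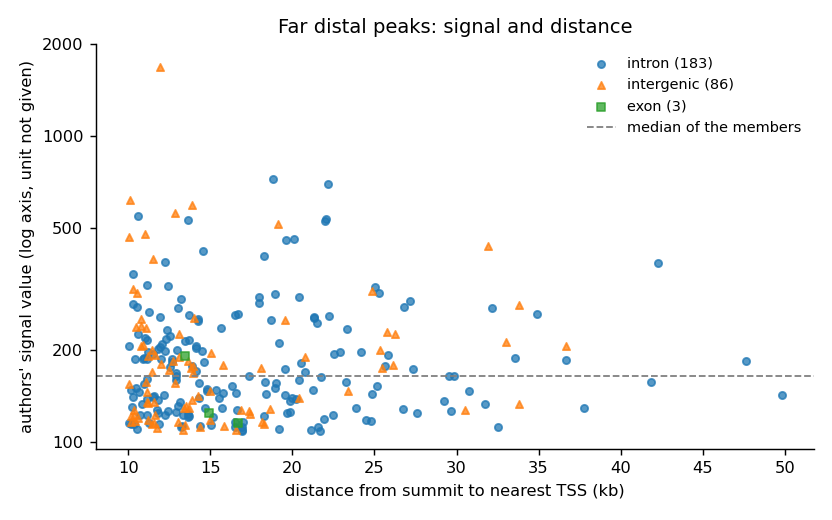
Authors' signal (log axis, unit not given) of each far distal peak against the distance from its summit to the nearest TSS in kb. Blue circles are introns (183), orange triangles intergenic sites (86) and green squares exons (3); the dashed line is the members' median of 163.8, and the strongest point, at 1684, is intergenic.

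The nearest TSS belonged to a protein-coding gene for 216 members and to an annotated non-coding RNA for 49. For 5 it belonged to a tRNA gene, namely tRNA:Ile-TAT-1-2 for 2 sites, tRNA:Thr-AGT-1-1 for 2 sites in tai, and tRNA:Gln-TTG-2-1 for 1 in CG12535. The other 2 were nearest to snoRNA:Me28S-C2789, for a site in CG42238, and to snRNA:U1:95Ca, for one in Pli.

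Introns held 183 members (67.3%, 61.4 to 72.8%), intergenic DNA 86 (31.6%) and exons 3, at raskol, pros and Cph. Because the rule takes sites far from any TSS, the room available matters. Without the Y chromosome, 32.5 Mb of the genome (24.3%) lay beyond 10000 bp from every TSS, and introns made up 53.4% of it. Members were found at 10.5 per Mb of far intron and 6.43 per Mb of far intergenic DNA. Over this whole territory there were 8.36 members per Mb (7.40 to 9.42), while the rest of the genome held 42.7 IDR peaks per Mb. Repeats differed too: 30.6% of the far territory was soft-masked and 16.7% of the rest, and the part of repeats in these densities was not tested.

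Arms differed in how many far sites they held. X had 65 members, or 11.9 per Mb of its far territory (9.18 to 15.2), and 2R had 31, or 4.49 per Mb (3.05 to 6.37). Between them were 2L with 42 (10.2 per Mb), 3L with 67 (8.92 per Mb) and 3R with 67 (8.16 per Mb). On X, 55 of 65 were intronic, where introns were 57.6% of its far territory. On 3L, 42 of 67 were intergenic, where introns were 42.7%. Chromosomes 4 and Y held 0, and on 4, with its short far territory, the interval reached 12.9 per Mb. Y had no IDR peak at all, and 49.6% of its far territory was soft-masked.

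Some members stood in groups along the arms. Joined when less than 20 kb apart, 116 stood alone, 72 formed 36 pairs, and 84 fell into 23 groups of 3 to 7. No such grouping was made for other IDR peaks. The members' median distance to the nearest other IDR summit was 6791 bp, compared with 4345 bp over all IDR peaks. Of members, 21.7% had a neighbour within 2 kb against 31.4%. Members thus had close IDR neighbours less often than IDR peaks as a whole. The distance rule itself keeps promoter peaks, 49.5% of the list, from lying within 2 kb of a member. Part of this difference is therefore built in, and how much was not tested. Some close neighbours are parts of one enriched stretch, and 12 members overlapped another IDR peak. Pairs in jing, gpp, tara and CG42747, and near CG43245 and Toll-6, fell in a single region of each replicate list. Members of such pairs are counted as separate peaks here and below.

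One of the largest groups had 7 peaks in 25229 bp of intergenic DNA on 3L, nearest to CG43245. Its signal values were 514.6, 435.6, 211.1, 205.2, 192.7, 178.6 and 114.0, so 2 peaks stood well above the rest. The strongest ranked 423, 322 and 381 in the replicates. The other group of 7 spanned 38189 bp in introns of kirre, an immunoglobulin adhesion gene of muscle founder cells. Its values were even, from 124.1 to 256.2, and an eighth member of kirre lay farther off (213.9). The weakest of them ranked 10608 in replicate 1 and 2445 and 3158 in replicates 2 and 3.

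The sbb intron held 6 members within 16060 bp, with signal values of 723.4, 534.8, 459.3, 244.7, 182.2 and 146.2. This gene gave 235.5 members per Mb of its far sequence, compared with 52.4 in kirre and 9.81 over all genes with such sequence. Some genes with fewer members were about as dense or denser, such as aus (234.7), lncRNA:CR46006 (259.6), Ca-beta (443.4) and tara (1565). A group of 4 lay between Su(z)2, a Polycomb group gene, and CG13323, where the strongest member (1684) stood beside peaks of only 113.9 to 117.9.

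Groups of 4 were also found in gpp (115.7 to 421.7, within 3694 bp), in NetA, which encodes the axon guidance ligand Netrin (124.8 to 319.8), and in the intergenic region of lncRNA:CR46353 and rpr. The gene rpr encodes an activator of apoptosis, and its group spanned 19093 bp with signal values of 311.2, 174.5, 132.9 and 126.6. The weakest of them is the site with facing words printed above. In each of these groups 1 peak stood well above the others.

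**Figure D5:**
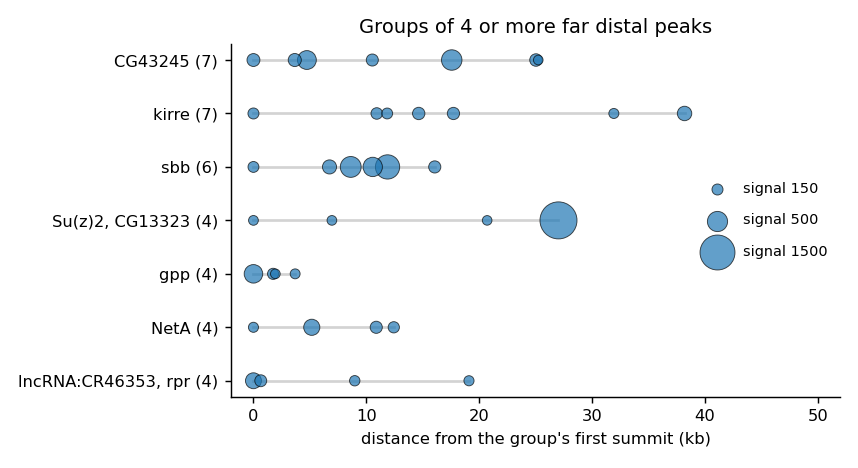
Positions of far distal summits in the 7 groups of 4 or more members, in kb from the first summit of each group, with the number of members in brackets. The area of each circle is proportional to the authors' signal; the circle of 1684 beside CG13323 is the largest, and kirre has 7 circles of similar size.

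There were 16 groups of 3. Intronic groups lay in CG6959, Drak, a death-associated protein kinase gene, Fur1, a furin protease gene, Snoo, ed, which encodes the adhesion molecule Echinoid, CG31145, aus, eIF5B, a translation initiation factor gene, lncRNA:CR46006, CG12535 and ftz-f1. Others were named by their nearest genes as tRNA:Ile-TAT-1-2 and CG13898, CG43402 and CG31928, Wnt4 and wg, lncRNA:CR46197 and CG6244, and CG43336 and pxb. The group of the Wnt ligand genes Wnt4 and wg spanned 3942 bp, with signal values of 146.0, 130.4 and 235.6. The strongest peak in these groups was that near tRNA:Ile-TAT-1-2 (477.6) and the lowest group maximum was that of CG43336 and pxb (140.6).

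Of 854 genes with sequence more than 10000 bp from every TSS, 112 held a member (13.1%). Of these, 67 held 1 and 23 held 2. The largest numbers were 8 in kirre, 6 in sbb, and 5 each in lncRNA:CR32773, Snoo and hth. The lists below were drawn up with earlier results of these data known, and their counts are set beside 13.1% without a test.

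Transcription factor genes that pattern the embryo held far distal peaks in several cases. Of 4 Hox genes with far sequence, Antp (signal 181.8, ranks 2086, 3219 and 2688) and Ubx (129.0, ranks 3555, 5949 and 3929) held 1 each. Both are selector genes of segment identity, and neither peak was among the strongest in any replicate. Of 3 gap and pair-rule genes, knrl, a nuclear receptor gene related to knirps, held 1 (135.4). Of 6 segment polarity genes, fz (698.9) and inv (117.9), the homeobox gene beside engrailed, did. Of 13 homeodomain genes, hth, Lim1 (215.7), ct (173.5) and pros (124.3) did. The hth introns held 5, with signal values of 258.7, 195.9, 183.9, 142.4 and 133.2.

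Genes of the ecdysone response and nuclear receptors held 9 peaks in 5 of 12 eligible genes. They were Hr4 (527.3 and 186.9), ftz-f1 (155.9, 144.6 and 111.5), tai, the gene of an ecdysone receptor coactivator (152.6 and 135.5), Eip93F (169.3) and knrl. The Hr4 peak was the only one of them among the strongest 20 members. The zinc finger list had 4 of 15: mamo (383.0), luna (193.8), jing (168.0 and 134.5) and lilli (113.5). Of these lilli encodes a subunit of the super elongation complex rather than a classical zinc finger protein.

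Signalling genes held a member in 4 of 14 cases. They were N (547.7), vn, a neuregulin-like ligand of the EGF receptor (326.4, ranks 1258, 501 and 1228), jeb, the ligand of the receptor Alk (262.4, ranks 1211, 1411 and 1241), and ths, an FGF ligand gene (144.6, ranks 2949, 9574 and 2675). The ths peak was much lower in replicate 2, while that of jeb had like ranks in all 3. Intergenic members nearest to wg (235.6), ths (177.0), vn (169.1) and Wnt4 (146.0) add to these.

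Axon guidance and adhesion genes are the longest list and matched the background, with 9 of 72 (12.5%) holding a member. The strongest were in NetA (319.8), kirre (256.2), Ten-a (208.3) and Sema1a (160.5), and 22 peaks in all lay in the 9 genes. None of the dpr and beat families of cell surface proteins with far sequence held one. Ion channel and neurotransmitter receptor genes had 2 of 28 (7.14%), the calcium channel genes Ca-beta (281.1 and 145.0) and Ca-alpha1T (139.4).

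RNA-binding protein genes had 1 of 15 (6.67%), the translational repressor gene pum (114.0). Of 13 cytoskeleton and junction genes, scrib (186.0) and pyd (163.5) held one, and of 6 muscle structure genes none did. Long non-coding RNA genes had 6 of 29 (20.7%), led by lncRNA:CR32773 (405.3), lncRNA:iab8 of the bithorax complex (274.4), lncRNA:CR44357 (235.7) and lncRNA:CR46006 (200.5). A peak in overlapping genes was counted for each of them. With so few genes in most lists, these shares are coarse.

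The DNA at far distal summits was poor in G and C. GC content was 33.9% ± 5.72 (SD, n = 272 peaks) within 100 bp of the summit and 40.2% ± 5.79 in windows 1000 bp away. It was lower at the summit at 220 members (80.9%). This dip was general in the data: GC content was lower at the summit at 83.8% of all IDR peaks, with 87.1% at promoters and 80.5% at 2000 to 10000 bp, and the mean at the summit was 34.0 to 34.1% in the nearer classes. The dip was smaller at narrow peaks. For 17 members the deposited peak was narrower than 416 bp, with signal values of 395.1 or more, and their GC content was 39.4% at the summit and 40.4% beside it. The other 255, all 416 bp wide, had 33.6% and 40.2%.

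Of the 16 fixed motifs searched on both strands, 10 were found in a larger share of summit windows than of control windows. The 10 include CACTGAGA, which was picked after an earlier look at these peaks. They also include the DRE, Motif 1 and Su(Hw) words described below, each at only 1 or 2 members. For the GAGA, homeodomain and Pho words, also among them, the difference was less than their intervals. The TATA word TATAAA was in 43.8% (37.8 to 49.9%) of members and 24.4% of control windows, and over all IDR summits in 39.7%. The GATA factor word AGATAA was in 17.6% (13.3 to 22.7%) and 10.7%, with 14.9% over all. Both are rich in A and T, as the summits were, and the part of base content in these shares was not tested. The AP-1 word TGANTCA was in 7.72% (4.84 to 11.6%) and 4.23% (2.70 to 6.28%), with 4.39% over all IDR summits. Its intervals for members and controls overlapped, and those of GATA did so slightly (8.20 to 13.6% in controls). For TATA and GATA the share over all IDR summits lay inside the members' interval.

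Other words were under the control level or differed little from it. The E-box CAGCTG was in 4.04% of members and 7.54% of control windows, the CTCF word AGGNGGC in 5.15% and 7.72%, and the CA repeat CACACACA in 2.57% and 4.04%. The BEAF word CGATA (20.2% and 20.6%), the GAGA word GAGAGAG (2.57% and 2.39%), the homeodomain word TAATTA (19.1% and 17.5%) and the Pho word GCCATNTT (4.78% and 4.23%) differed by less than their intervals.

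Words known from promoters and boundary elements were rare. The DRE, TATCGATA, was at 2 members, CG15282 and kek5 (0.735%), compared with 3.33% of all IDR summits and 6.19% of promoter summits. It was in 0.42% of summits at 500 to 2000 bp and 0.55% at 2000 to 10000 bp. Its low share was thus not particular to far distal peaks. Motif 1, GGTCACACT, was at 1, the farthest member in hth, and the Su(Hw) word GCATACTT at 2, in CG34353 and lz. Over all IDR summits these 2 words were in 1.39% and 1.35%. The Zelda word CAGGTAG and the Grainyhead word AACCGGTT were at 0 of 272, with an interval that reached 1.35%. Their shares over all IDR summits, 0.696% and 0.152%, lay inside that interval. In control windows the DRE and Motif 1 were at 0 of 544. The Su(Hw), Zelda and Grainyhead words were in 0.368%, 0.184% and 0.368% of them. Each word is 1 fixed pattern, so other forms were not counted.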

How the data were processed

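ChIP-seq peak lists of 3 biological replicates were analysed in dm6. The authors deposited a signal value and a summit offset per region, per the file headers as regions relative to 1 shared control, with lists per replicate, for the pooled replicates and after IDR. The sources used here do not name the aligner, peak caller, IDR threshold or signal scale. The lists hold no read counts, so depth is unknown. The IDR list equals the strongest 4599 of 16640 pooled regions by signal. The dm3 lists were not used.

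The summit (region start plus offset) was set against TSS of Ensembl release 115 on the main arms, without pseudogenes and transposable elements. Overlap meant at least 1 bp. Replicates were compared on their strongest 4599 regions, a peak taking the rank of the strongest region it overlaps. GC content and motifs used windows within 100 bp of the summit. Shares have 95% Clopper-Pearson intervals, and densities per Mb exact Poisson intervals; both cover counting error over peaks only. An exact sign-flip permutation test over replicates was the only test. Functions for distance, overlap and intervals were tested on simulated data.

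The members, the 13 gene lists (10 listed names were not matched), motifs and tests were chosen with earlier results of these data known, and the orientation of CACTGAGA was first examined on these same peaks. The text names by rule the hosts or nearest genes of the 20 strongest and 5 farthest members, of groups of 3 or more, up to 4 per list, 3 members on either side of the distance limit, and those behind counts of 5 or fewer. Other sequences and list members shown were chosen after their values were seen. Alternatives covered the distance, TSS set, peak strength, summit definition, windows, overlap and each replicate left out. Computations ran in Python 3.11.15 with scipy 1.17.1, pandas 2.3.3 and numpy 2.4.6, and plots in matplotlib 3.10.9.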

Additional observations from a re-analysis of the deposited data

How the results depend on the processing

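The number of far distal peaks, 272, was 679 beyond 5000 bp, 70 beyond 20000 bp, 457 with TSS of protein-coding genes only and 104 among the stronger 2299 IDR peaks. Without 1 replicate it was 193 to 220. The intronic share was 53.4% with TSS of protein-coding genes only and 78.6% beyond 20000 bp. The share held by all replicates was 98.1% among the stronger 2299 and 100% with whole replicate lists. With 1 replicate left out, the share held by the other 2 was 71.0 to 80.9%. The number of motifs more frequent at the summit, 10 of 16 with CACTGAGA counted, was 6 beyond 20000 bp. It was 6 to 8 without 1 replicate (6 without replicate 3), so that count is not firm. The share with CACTGAGA facing the summit, 14.7%, was 10.5% beyond 5000 bp, 20% beyond 20000 bp and 25% with the first 6 letters only, and 12.4 to 15% without 1 replicate. The difference in rank (1.63 to 3.52 percentage points) and the GC difference (-8.77 to -4.97 percentage points) kept their direction under every alternative run for them. The median spacing, 6791 bp, was 6320 to 7674 bp under 8 of 9 alternatives and 18382 bp, above the members' upper quartile of 14540 bp, among the stronger 2299 peaks, a list with fewer peaks. For the other results that moved, the cause was not tested. Depth is unknown, and whether it limits the weakest peaks, which lie near the end of the list, could not be tested. No paired analysis was possible because there is only 1 group.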
